A study of Mus musculus with 2 samples.

Results

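The expressed solute carrier genes of mouse monocytic myeloid-derived suppressor cells (M-MDSCs) are described here. They were chosen by name and level: every gene whose symbol reads Slc, a family number, the letter a and a member number, with at least 1 FPKM (fragments per kilobase of gene, scaled to the reads of the library) in at least one of the libraries, grouped by family number. The rule therefore selected on FPKM in these same libraries. It took 153 of the 348 genes with such a name and of the 10948 genes that reached 1 FPKM among 34745 listed.

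Bone marrow cells of C57BL/6 mice were cultured for 7 days with the myeloid growth factor GM-CSF alone, giving CHBP- M-MDSCs, or with GM-CSF and CHBP, a cyclic helix B peptide derived from erythropoietin, giving CHBP+ M-MDSCs. Both groups thus received GM-CSF, and M-MDSCs were sorted by flow cytometry as CD11b+Ly6G-Ly6C high cells. The labels write the strain of the CHBP+ sample as C57BL/7, and they give neither the dose of CHBP nor the age of the mice. Each condition is 1 library, of 16484504 reads for CHBP- and 16280466 reads for CHBP+, so no replicate spread exists, no test was run, and what separates these libraries cannot be told apart from what CHBP did.

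Myeloid genes were read in both libraries. Itgam, which encodes the sorting antigen CD11b, is listed on 2 rows, at 157 and 232 FPKM (log2 ratio 0.56, as defined below) and at 99.99 and 152.9 FPKM (log2 ratio 0.61, at least 1.5-fold higher) in CHBP- and CHBP+ M-MDSCs. Ly6c2, which encodes a Ly6C antigen, stood at 56.9 and 34 FPKM, a log2 ratio of -0.73 and so at least 1.5-fold lower. Lyz2 stood at 9756 FPKM and 7830 FPKM, and Csf1r at 113 and 126 FPKM. Markers of other cells were also read. The summed level of 7 erythroid genes was 1305 FPKM in CHBP- and 602 FPKM in CHBP+ M-MDSCs, and 3 of the 6 that reached 1 FPKM were at least 1.5-fold lower. The summed level of 6 neutrophil genes was 167 and 124 FPKM, with 1 lower (Elane), and that of 4 B cell genes 27.5 and 19 FPKM, with 1 lower (Cd79a). The summed level of 6 mast cell and basophil genes was 216 and 190 FPKM, with Ms4a2 higher (2.46 and 6.11 FPKM) and Mcpt8 lower (46.1 and 29.9 FPKM). The summed level of 6 dendritic cell genes was 798 and 677 FPKM, with none higher or lower, Itgax at 107 and 142 FPKM and Cd74 at 567 and 438 FPKM. Of 5 T cell genes, 1 reached 1 FPKM. Ly6g, which the gate left out, stood at 2.19 and 2.12 FPKM. Of the 10948 genes that reached 1 FPKM, 3.42% were higher and 2.89% lower by this rule. With the trend in gene length described below removed, Hbb-bs stayed lower, at -1.55. Hbb-bt (-0.39), Hba-a2 (-0.41), Elane (-0.45), Cd79a (-0.57) and Mcpt8 (-0.37) were then within 1.5-fold. Ms4a2 (1.08) and the second Itgam row (0.62) stayed higher, and Ly6c2 (-0.68) stayed lower. The part of these cells in the values below was not tested, and fewer cells of a type cannot be told apart from less RNA per cell.

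Solute carriers are membrane proteins that move amino acids, sugars, metals, ions, nucleotides and vitamins across the cell surface and the membranes of lysosomes, mitochondria and other organelles. Most act as exchangers, as cotransporters driven by sodium or protons, or as facilitative carriers. In myeloid cells they are known for supplying arginine to arginase and nitric oxide synthase, cystine for glutathione, glucose for glycolysis, and iron recovered from engulfed red cells.

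The sequences just before the start sites of 4 genes are shown first. Slc36a1, Slc37a2 and Slc37a3 were among the 6 members called higher below, and Slc7a11 was the most abundant of the 10 with the highest ratio. Each window printed holds a marked motif, so these windows do not stand for the higher members as a set. RefSeq promoters (GRCm38.p6, mm10) were matched for 110 of the 147 members with a plain carrier name, each from 250 bases before to 50 bases after a start site. Each line below runs 5′ to 3′ from 150 bases before the start to 20 bases after it, and the capitals mark matches of the motifs searched. The Slc36a1 window lies on the plus strand at chr11:55204190-55204359, and its capitals mark CACGTG (E-box) and TCACGTGA, an extended E-box that contains it. The Slc37a3 window lies on the minus strand at chr6:39377688-39377857, and its capitals mark TCACGTGA. The Slc37a2 window lies on the minus strand at chr9:37255719-37255888, and its capitals mark TGANTCA (AP-1). The Slc7a11 window lies on the minus strand at chr3:50443594-50443763, and its capitals mark TGATGNAA (C/EBP-ATF) on each strand. A second Slc37a3 window, and those of the higher members Slc8a1 and Slc25a30, held none of these 4 motifs and are not printed. The start site of the Slc8a1 window, chr17:81738387 on the minus strand, lies outside the deposited row of the gene, chr17:81388691-81649607. That window therefore does not describe the start of the row that was counted. No window of Slc7a2, also called higher, is shown.
Slc36a1: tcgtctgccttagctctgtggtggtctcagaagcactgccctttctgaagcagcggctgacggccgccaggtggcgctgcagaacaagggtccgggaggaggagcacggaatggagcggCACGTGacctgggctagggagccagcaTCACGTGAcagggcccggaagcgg
Slc37a3: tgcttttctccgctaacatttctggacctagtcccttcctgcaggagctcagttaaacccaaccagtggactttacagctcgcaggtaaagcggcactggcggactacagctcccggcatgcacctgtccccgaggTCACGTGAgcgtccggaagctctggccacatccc
Slc37a2: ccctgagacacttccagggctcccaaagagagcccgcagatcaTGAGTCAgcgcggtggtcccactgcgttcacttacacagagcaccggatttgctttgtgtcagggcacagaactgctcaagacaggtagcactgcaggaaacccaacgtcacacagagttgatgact
Slc7a11: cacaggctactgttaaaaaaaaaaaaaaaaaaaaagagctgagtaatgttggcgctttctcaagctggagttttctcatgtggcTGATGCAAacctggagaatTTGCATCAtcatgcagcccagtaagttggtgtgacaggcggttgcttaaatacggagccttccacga
CACGTG was found in 23 of the 110 members (20.9%), in 12.2% of the 8098 kept genes with a promoter and in 8.09% of 27025 genes. TCACGTGA was found in 4 members (Slc36a1, Slc37a3, Slc25a36 and Slc35a5; 3.64%), in 2.37% of the kept genes and in 1.12% of all genes. TGANTCA was in 9 members (8.18%) against 6.22% of the kept genes. TGATGNAA was in 5 members (4.55%) against 2.84% of the kept genes. GGGCGG was in 84 members (76.4%) against 69.0%, and TATAAA in 8 members (7.27%) against 8.15%. All motifs were searched on both strands, overlapping matches included. These matches are descriptions of letters in a window, and binding was not measured.

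The members came from 43 of the 48 families listed, and 14 families had 1 member. Of the 195 genes of this name that were not members, 91 had no read in either library and 104 had reads but stayed under 1 FPKM. The largest sets of members belonged to SLC25, the mitochondrial carriers (31 of 47 listed), SLC39, which carries zinc and other metals into the cytosol (11 of 14), and SLC7, cationic amino acid transporters and light chains of the heteromeric transporters (7 of 15). All 4 genes of SLC37, the sugar phosphate exchangers, and all 3 of SLC41, magnesium carriers, were members, against 3 of the 25 genes of SLC22, organic ion transporters. The members lay on 20 chromosomes. Of the 153, 145 reached 1 FPKM in both libraries, 5 in CHBP- only and 3 in CHBP+ only. Of the members just inside the threshold, Slc13a2 stood at 1.01 and 0.789 FPKM and Slc39a3 at 0.920 and 1.02 FPKM in CHBP- and CHBP+ M-MDSCs. Just outside it were Slc7a3 at 0.960 and 0.679 FPKM and Slc5a3 at 0.870 and 0.972 FPKM.

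The members took 0.948% of the reads in CHBP- and 1.01% in CHBP+ M-MDSCs. Expression was spread unevenly. The most abundant 10 members held 38.8% of the members' summed FPKM in CHBP- and 37% in CHBP+ M-MDSCs, and 76 members had a mean under 5 FPKM. Slc25a5, the ADP/ATP exchanger of the inner mitochondrial membrane, stood at 146 FPKM in CHBP- and 126 FPKM in CHBP+ M-MDSCs. Slc48a1, which brings heme out of lysosomes, stood at 143 and 137 FPKM, and its row overlaps Hdac7. Slc38a2, a sodium-coupled carrier of small neutral amino acids, stood at 79.9 and 89.6 FPKM. These were followed by both chains of the large neutral amino acid exchanger, Slc3a2 at 57.8 and 55.7 FPKM and Slc7a5 at 53.7 and 48.7 FPKM. The remaining genes of the 10 were Slc9a3r1 (54.5 and 44.9 FPKM), a scaffold protein and not a carrier, the mitochondrial ATP-Mg/phosphate carrier Slc25a24 (42.6 and 48.8 FPKM), the choline transporter-like Slc44a2 (40.3 and 39.8 FPKM), the zinc importer Slc39a1 (38.7 and 37 FPKM) and the glucose transporter Slc2a1 (35.2 and 32.8 FPKM).

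**Figure D1:**
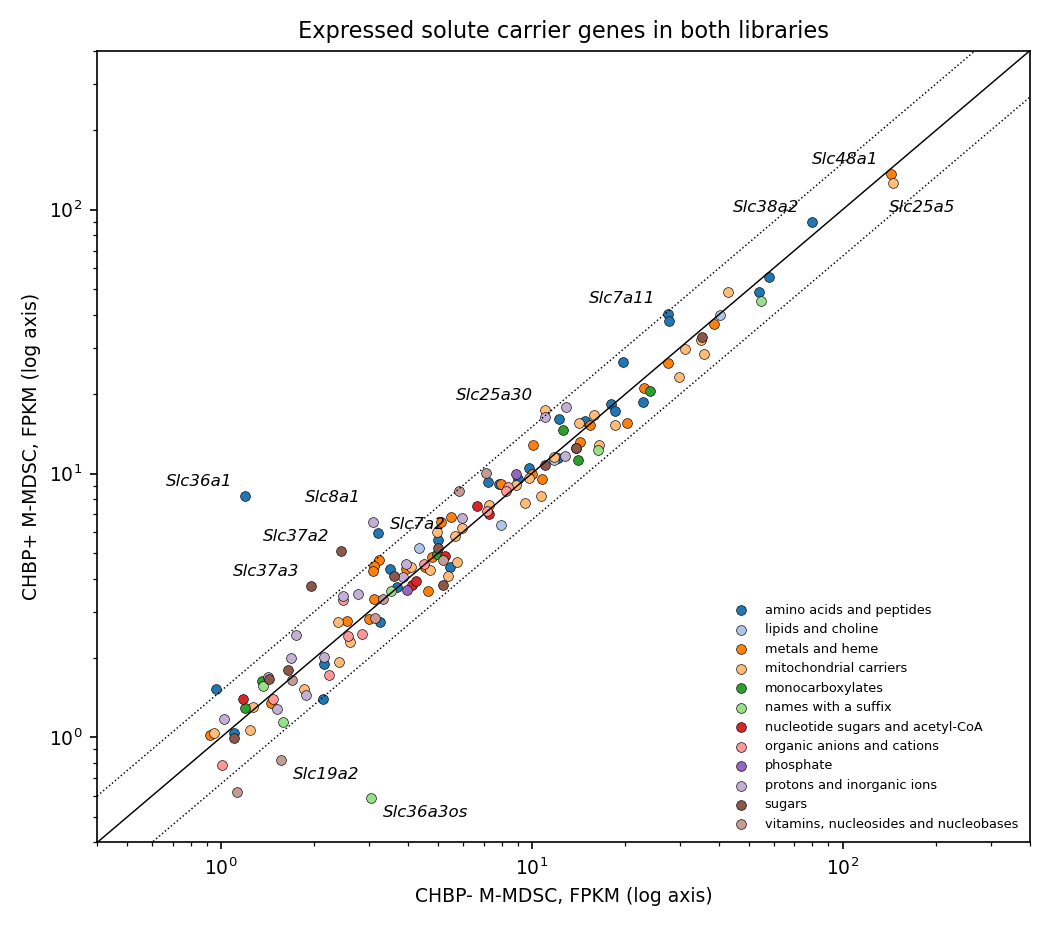
FPKM of each of the 153 members in CHBP- (horizontal) and CHBP+ M-MDSCs (vertical), both on log axes, coloured by substrate class. The solid line marks equal levels and the dotted lines a fold of 1.5 in FPKM; most members lie between the dotted lines, and Slc36a1 (1.20 and 8.21 FPKM) stands farthest above them.

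Members were compared between the libraries by the log2 ratio, log2 of (FPKM in CHBP+ plus 1) over (FPKM in CHBP- plus 1), which understates the change of low genes. A gene is called higher or lower where this ratio, with its pseudocount of 1 FPKM, reached 1.5-fold. Of the 153 members, 6 were higher (3.92%) and 1 was lower (0.654%) in CHBP+ M-MDSCs. Of all 10948 genes kept, 3.42% were higher and 2.89% were lower by the same rule. The share of members that were higher thus lay near the background. The median log2 ratio of the members was -0.0018, against -0.028 for all genes kept, and 76 members had a ratio above 0 and 77 below 0.

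A second description used the fold of the gene's reads per library total with its 95% Clopper-Pearson interval, which covers counting error only. It leaves out variation between cultures and between libraries, which 1 library per condition cannot give. It also treats reads as independent, though they are not independent molecules. This interval lay above 1 for 40 members (26.1%), against 27.9% of all genes kept, and below 1 for 39 members (25.5%), against 31% of all genes kept. For the other 74 members the interval included 1, so that a difference was not detectable at this depth.

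Slc36a1 had the highest ratio of the members. It encodes a proton-coupled carrier of small neutral amino acids found on lysosomes. It had 145 reads (1.20 FPKM) in CHBP- and 981 reads (8.21 FPKM) in CHBP+ M-MDSCs. The log2 ratio was 2.07 and the fold of reads 6.85 (5.75 to 8.21). On GRCm38 the gene lies at chr11:55204350-55236330 and it overlaps no other gene with at least 10 reads in a library. The other member of its family, Slc36a4, stood at 12.2 FPKM in CHBP- and 16.1 FPKM in CHBP+ M-MDSCs (1276 and 1659 reads), a log2 ratio of 0.37, and so did not reach 1.5-fold.

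The only member that was lower lies near it. Slc36a3os, named as an opposite-strand transcript of Slc36a3 and not a carrier, lies 64157 bases from Slc36a1 on chromosome 11. It had 26 reads (3.03 FPKM) in CHBP- and 5 reads (0.591 FPKM) in CHBP+ M-MDSCs, a log2 ratio of -1.34, and it passed the minimum level through CHBP- M-MDSCs alone. Its call rests on few reads.

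Among amino acid and peptide carriers, 27 of 66 listed genes were members, of which 2 were higher (7.41%, against 3.42% of all genes kept) and none lower (against 2.89%). Their median log2 ratio was 0.093 and their summed reads gave a fold of 1.16 (1.15 to 1.18). Such an interval of summed reads, here and for the classes below, covers counting error only. It leaves out the spread among the genes, and genes with many reads weigh most. The summed FPKM of the class was 430 in CHBP- and 476 in CHBP+ M-MDSCs. Slc7a2, the arginine transporter CAT2, was also higher, with 976 reads (3.19 FPKM) in CHBP- and 1800 reads (5.96 FPKM) in CHBP+ M-MDSCs. Its log2 ratio was 0.73 and its fold of reads 1.87 (1.73 to 2.02). This call was lost with either length trend removed, as given below. Slc7a1, the arginine transporter CAT1, stood at 7.24 and 9.32 FPKM, a log2 ratio of 0.33. Slc7a11, the cystine/glutamate exchanger, stood just under the threshold, with 7083 reads (27.4 FPKM) in CHBP- and 10320 reads (40.4 FPKM) in CHBP+ M-MDSCs, a log2 ratio of 0.54 and a fold of reads of 1.48 (1.43 to 1.52). Its row overlaps Gm37498.

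The sodium-coupled SLC38 carriers of glutamine and small neutral amino acids had 6 members of 11 listed. None was called higher or lower (against 3.42% and 2.89% of all genes kept). Their median log2 ratio was 0.22, and it was 0.20 and 0.12 with the 2 length trends below removed. An interval above 1 was found for 5 of them (83.3%, against 27.9% of all genes kept), and below 1 for 1 (16.7%, against 31%). The latter was Slc38a10, with 2578 and 2397 reads and a log2 ratio of -0.08. One of the 5, Slc38a6, had 182 and 285 reads (0.962 and 1.53 FPKM), a fold of reads of 1.59 (1.31 to 1.92) and a log2 ratio of 0.36, and it was called higher with CPM or a pseudocount of 0.1. Slc38a1 stood at 19.7 and 26.4 FPKM (log2 ratio 0.41) beside the neighbouring Slc38a2 (log2 ratio 0.16), 44481 bases away on chromosome 15. Slc38a9, a lysosomal arginine sensor, stood at 3.51 and 4.36 FPKM. The taurine transporter Slc6a6 stood at 27.6 and 37.7 FPKM, a log2 ratio of 0.44. Values below 0 were found for Slc1a5, an exchanger of glutamine and other neutral amino acids (22.8 and 18.6 FPKM, log2 ratio -0.28), and for the heteromeric chains Slc3a2 and Slc7a5 (-0.05 and -0.14). The creatine transporter Slc6a8 had 347 and 225 reads, a log2 ratio of -0.38.

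Of 11 members among the sugar carriers, 2 were higher (18.2%, against 3.42% of all genes kept), and both belong to SLC37. Slc37a2, a glucose 6-phosphate/phosphate exchanger of the endoplasmic reticulum, had 314 reads (2.44 FPKM) in CHBP- and 646 reads (5.09 FPKM) in CHBP+ M-MDSCs. Its log2 ratio was 0.82 and its fold of reads 2.08 (1.82 to 2.39). Its row overlaps Gm10177, and the counting of shared reads is not known here. Slc37a3 had 381 reads (1.96 FPKM) and 720 reads (3.74 FPKM), a log2 ratio of 0.68 and a fold of reads of 1.91 (1.69 to 2.17), and its call was lost with the length trend removed and with a minimum of 5 FPKM. The other members of this family were Slc37a1 at 3.61 and 4.10 FPKM and Slc37a4, the glucose 6-phosphate transporter needed for glucose release, at 11 and 10.8 FPKM. No hexose transporter reached 1.5-fold. Slc2a1 had 3031 and 2788 reads (log2 ratio -0.10), Slc2a3 had 896 and 930 reads (0.06) and Slc2a6 had 1142 and 1013 reads (-0.14). The lactate carriers Slc16a1 and Slc16a3 stood at 14 and 11.3 FPKM and at 24 and 20.5 FPKM in CHBP- and CHBP+ M-MDSCs, log2 ratios of -0.29 and -0.21.

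**Figure D2:**
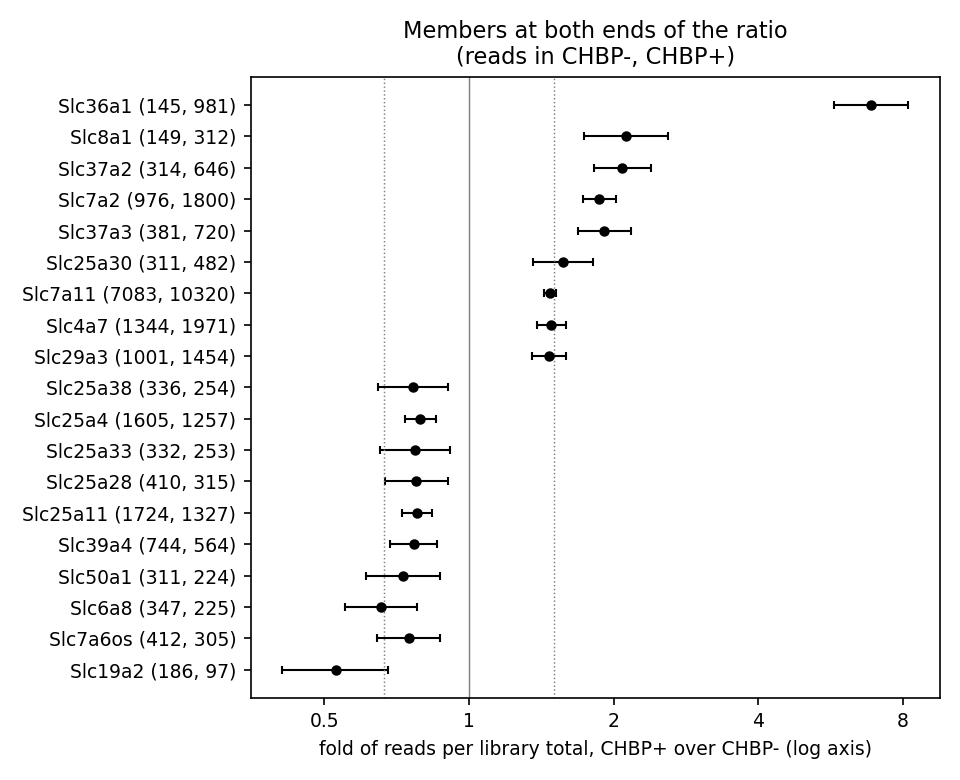
Fold of reads per library total (CHBP+ over CHBP-, log axis) of the members with at least 50 reads in a library at both ends of the log2 ratio, 9 at the high and 10 at the low end, with 95% Clopper-Pearson intervals as bars and reads in each library beside the name. Dotted lines mark a fold of 1.5 in each direction; Slc36a1 lies at 6.85, and the lowest of the set, Slc19a2, at 0.528.

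The carriers of protons and inorganic ions had the highest class median before any length trend was removed, but not after. Of 16 members, 1 was higher (6.25%, against 3.42% of all genes kept), and 9 had an interval above 1 (56.2%, against 27.9%) and 2 below (12.5%, against 31%). Their median log2 ratio was 0.16 and their summed reads gave a fold of 1.26 (1.23 to 1.3). Slc8a1, a sodium/calcium exchanger of the cell surface, had 149 reads (3.08 FPKM) in CHBP- and 312 reads (6.53 FPKM) in CHBP+ M-MDSCs, a log2 ratio of 0.88 and a fold of reads of 2.12 (1.74 to 2.59). Slc4a7, a sodium bicarbonate cotransporter, stood at 11 and 16.4 FPKM, a log2 ratio of 0.53.

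The mitochondrial carriers were the largest class, with 31 members. Of these, 1 was higher (3.23%, against 3.42% of all genes kept) and none lower (against 2.89%). Slc25a30, a carrier first described in kidney, had 311 reads (11.1 FPKM) in CHBP- and 482 reads (17.4 FPKM) in CHBP+ M-MDSCs, a log2 ratio of 0.61 and a fold of reads of 1.57 (1.36 to 1.82). The class median was -0.065, with 4 intervals above 1 (12.9%, against 27.9% of all genes kept) and 10 below (32.3%, against 31%), and the summed reads gave a fold of 0.952 (0.938 to 0.966). Of 8 well-known mitochondrial carriers, 7 had an interval below 1 (87.5%, against 31% of all genes kept) and 1 above (12.5%, against 27.9%). Their median log2 ratio was -0.26. These 8 were chosen with earlier results known, and the other members of the class had 3 intervals above 1 and 3 below. Those 7 were the ADP/ATP exchangers Slc25a4 (35.9 and 28.5 FPKM) and Slc25a5, the phosphate carrier Slc25a3 (35.1 and 31.9 FPKM), the citrate carrier Slc25a1 (18.5 and 15.3 FPKM), the oxoglutarate carrier Slc25a11 (29.8 and 23.2 FPKM), the iron importer mitoferrin 2, Slc25a28 (16.4 and 12.8 FPKM), and Slc25a39 (9.52 and 7.71 FPKM), which imports glutathione. None of them reached 1.5-fold. The iron importer mitoferrin 1, Slc25a37, stood at 14.2 and 15.6 FPKM, a log2 ratio of 0.12, beside the erythroid markers given above. Slc4a1, the anion exchanger of red cells, had 188 and 175 reads, a log2 ratio of -0.06.

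No metal or heme carrier was called higher or lower among 26 members, against 3.42% and 2.89% of all genes kept. Their median log2 ratio was -0.01. The ratio was above 0 for 12 and below 0 for 14, and 6 intervals lay above 1 (23.1%, against 27.9% of all genes kept) and 7 below (26.9%, against 31%). Slc11a1, the phagosomal carrier of divalent metals of macrophages, stood at 13.9 and 12.5 FPKM, and the iron exporter ferroportin, Slc40a1, at 4.53 and 4.41 FPKM. The copper carriers Slc31a1 and Slc31a2 stood at 15.4 and 15.2 FPKM and at 22.9 and 21.0 FPKM. Of the others, the zinc importer Slc39a4 had 744 and 564 reads (log2 ratio -0.36), and Slc39a10 had 419 and 603 reads (0.43).

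Of 8 carriers of vitamins, nucleosides and nucleobases, none was called higher or lower with the pseudocount of 1 FPKM. Of all genes kept, 3.42% were higher and 2.89% lower. Slc29a3, a lysosomal nucleoside carrier, had 1001 reads (5.82 FPKM) in CHBP- and 1454 reads (8.56 FPKM) in CHBP+ M-MDSCs, a log2 ratio of 0.49. Slc23a2, a vitamin C transporter, stood at 7.13 and 10.1 FPKM, a log2 ratio of 0.44. The thiamine transporter Slc19a2 had the lowest ratio of the members with at least 50 reads in a library, with 186 and 97 reads (1.56 and 0.822 FPKM), a log2 ratio of -0.49 and a fold of reads of 0.528 (0.409 to 0.679). It was called lower with CPM or a pseudocount of 0.1, and so was the nucleoside carrier Slc29a2 (46 and 25 reads) with the latter. Among 6 monocarboxylate, 6 nucleotide sugar and acetyl-CoA, 10 organic ion, 4 lipid and choline and 2 phosphate carriers, none was higher or lower. Classes this small would hold few calls at the shares of all genes kept. Of the 6 members with a suffix in the name, which are not carriers, 1 was lower (16.7%, against 2.89% of all genes kept). It was the Slc36a3os gene described above.

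**Figure D3:**
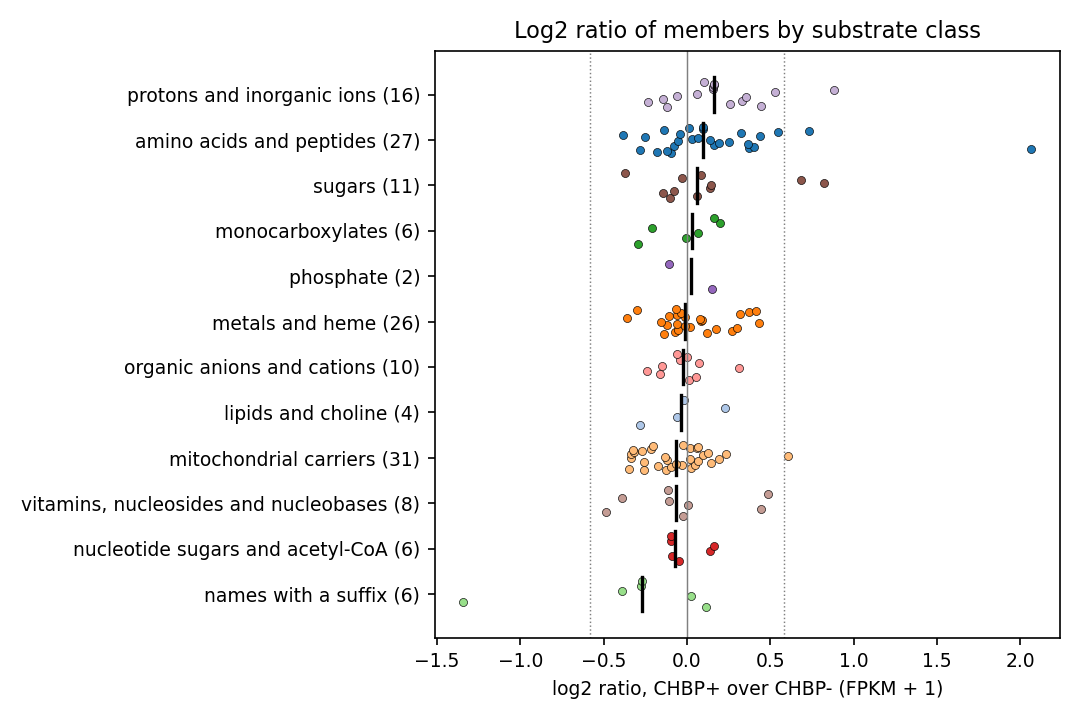
Log2 ratio (FPKM plus 1, CHBP+ over CHBP-) of each member by substrate class, with the number of members in brackets, the class median as a bar and dotted lines at a 1.5-fold ratio. The median was highest for protons and inorganic ions (0.16) and lowest for the 6 names with a suffix (-0.27), and most points lie within the dotted lines.

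Gene length moved with the ratio in both the members and all genes kept, and its part in the results was not tested. The length here is the one that the deposited reads and FPKM imply. Spearman's rho between length and log2 ratio was 0.48 over 10948 genes and 0.45 over the 153 members, a correlation across genes of the same 2 libraries. With the longest annotated transcript in its place it was 0.66 over 10508 genes and 0.62 over the members. Among the shortest 51 members (520 to 4371 bases) the median log2 ratio was -0.11, and 14 had a ratio above 0. Among the middle 51 the median was 0.0058, with 26 above 0. Among the longest 51 (7673 to 19324 bases) the median was 0.12, and 36 had a ratio above 0. All genes kept, divided at the same lengths, had medians of -0.16, 0.0041 and 0.15. Their lengths ran from 23 to 60757 bases, so their outer groups also held genes shorter or longer than any member.

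With the length trend removed, 4 members stayed higher (Slc36a1, Slc8a1, Slc25a30 and Slc37a2) and Slc36a3os stayed lower, against 2.85% of all genes kept higher and 1.53% lower. With the trend in transcript length removed, Slc37a3 was also higher, against 2.18% of genes higher and 1.06% lower. Slc7a2 lost its call under both, at 0.46 and 0.37 on the log2 scale. Slc7a11, which was not called before, stood at 0.31 and 0.11. Some other members named above with a ratio above 0 also came closer to it. Slc7a1 stood at 0.15 and 0.0081, Slc6a6 at 0.29 and 0.19, Slc38a1 at 0.32 and 0.05, and Slc4a7 at 0.47 and 0.20. Slc38a9, at 0.15 and 0.27, did so under the first trend only. Others moved away from 0, such as Slc25a30 at 0.79 under each trend and Slc8a1 at 0.997 and 0.92. Slc38a2 (0.20 and 0.03) and Slc25a24 (0.26 and 0.17) moved away under the first trend only. Slc2a3 changed sign under both, at -0.09 and -0.20. The median of the ion carriers went from 0.16 to 0.10 and 0.0096, that of amino acid carriers changed from 0.093 to 0.11 and 0.033, and that of all mitochondrial carriers from -0.065 to -0.089 and -0.013. The 8 well-known mitochondrial carriers had medians of -0.19 and -0.11. Slc25a5 changed sign under the transcript trend, with a log2 ratio of 0.05, and Slc48a1 changed sign under both, with 0.04 and 0.0095. The medians of sugar, metal, lipid and choline, and organic ion carriers changed sign under the first trend, at -0.08, 0.0017, 0.023 and 0.060. That of the monocarboxylate carriers changed sign under the second, at -0.05. That of the 2 phosphate carriers changed sign under both, at -0.0020 and -0.0030.

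**Figure D4:**
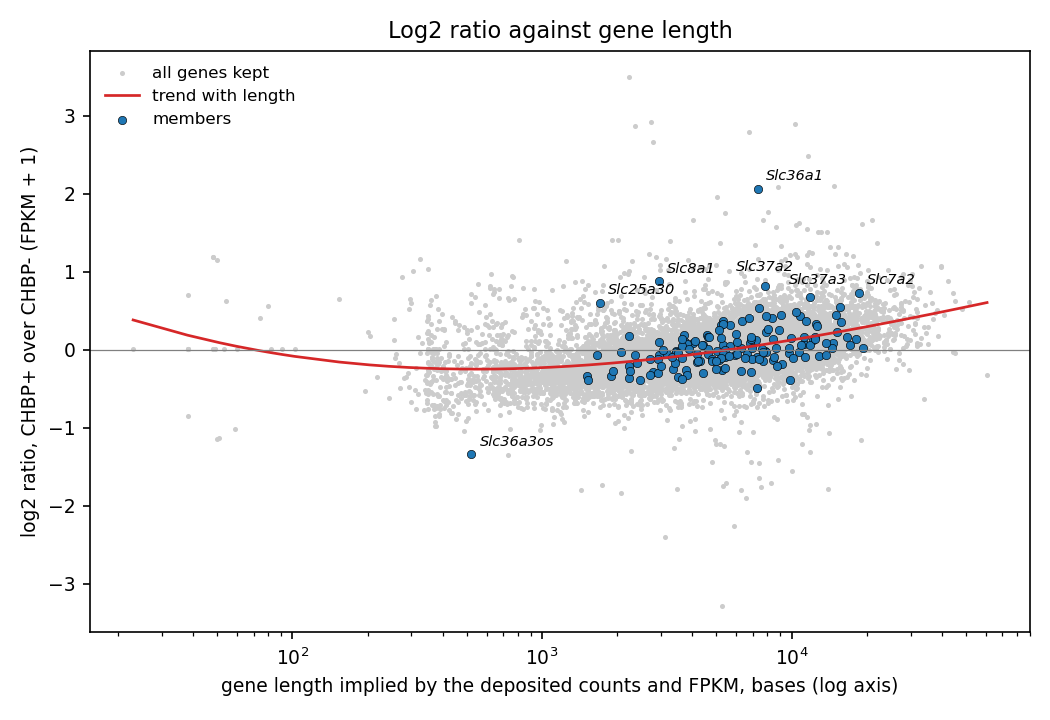
Log2 ratio (FPKM plus 1, CHBP+ over CHBP-) against gene length in bases (log axis) for 10948 genes kept (grey) and the 153 members (blue), with the fitted trend in red. Slc36a1 (2.07), Slc8a1 (0.88) and Slc25a30 (0.61) stand above the trend at their lengths, and so does Slc7a2 (0.73), by 0.46 where the trend itself is at 0.28.

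Genes that work with these carriers were listed beside them. Of 26 partner proteins and enzymes, 25 were found by name, and 22 of those reached 1 FPKM. None of these was called higher or lower, against 3.42% and 2.89% of all genes kept. Arg1, which uses arginine, stood at 399.6 and 401.3 FPKM in CHBP- and CHBP+ M-MDSCs, and Nos2, the inducible nitric oxide synthase, at 0.203 and 0.381 FPKM (14 and 26 reads), under the minimum. The glutathione synthesis genes Gclc and Gclm stood at 18.5 and 20.0 FPKM and at 16.4 and 16.8 FPKM. Ldha stood at 329 and 281 FPKM, and the ferritin chain Fth1 at 13195 and 9707 FPKM. Of 17 listed genes of the solute carrier families under other names, 15 were found by name, and 8 of those reached 1 FPKM. Of these, 1 was lower (against 2.89% of all genes kept) and none higher (against 3.42%). It was Mpc1, a subunit of the mitochondrial pyruvate carrier. Mpc1 had 723 reads (10.7 FPKM) in CHBP- and 312 reads (4.68 FPKM) in CHBP+ M-MDSCs, a log2 ratio of -1.04. Mpc2, its partner subunit, had 385 and 249 reads, a log2 ratio of -0.42.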

How the data were processed

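Total RNA of sorted CHBP- and CHBP+ M-MDSCs was sequenced, 1 library per condition, grouped by the labels. The authors deposited read counts per gene, which are not normalized, and FPKM, which equal the count divided by gene length and by the library's total count, rescaled. For the upstream steps, the submitters' processing notes name HISAT2 2.0.4, Cufflinks 2.1.1, Cuffdiff, mm10 and GRCm38, whereas the published methods name TopHat2, HT-seq and mm9. The deposited coordinates overlapped the RefSeq GRCm38.p6 gene of the same symbol for 153 of 153 members. The use of strand and of reads that map to several genes is not given in the sources used here, so overlapping genes and close paralogs are uncertain.

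Genes with at least 1 FPKM in a library were kept. The log2 ratio used a pseudocount of 1 FPKM and a threshold of 1.5-fold, and intervals are 95% Clopper-Pearson (scipy 1.17.1). No model was fitted, since 1 library per condition leaves no spread. The trend with length was a polynomial of degree 3, fitted to the length the deposited values imply or, chosen after seeing the data, to the longest GENCODE M1 transcript matched by gene identifier. Promoter sequences are RefSeq's. Named genes are the 10 highest in mean FPKM, the 10 highest and 10 lowest in log2 ratio with at least 50 reads in a library, a list of carriers with known roles, and 2 on either side of the minimum. Others (Slc36a3os, Slc36a4, Slc6a6, Slc23a2, Slc39a10, Slc4a1, Slc37a1, Slc38a6, Slc38a10, Slc25a36, Slc35a5, Slc29a2) were named after their values were seen. Some genes that this rule names are not reported here. Members and lists were chosen with earlier results of these data known. Alternatives were another pseudocount, filter, scaling (edgeR 4.0.16 in R 4.3.3) or fold, CPM, and leaving out overlapping or suffixed genes. The calculation was tested on simulated data.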

Additional observations from a re-analysis of the deposited data

How the results depend on the processing

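The 6 members that were higher stayed higher, and Slc36a3os lower, with the trimmed mean of M values and after centring on the median of all genes. They were also the same with no minimum FPKM and with a minimum on mean FPKM. Neither of these 2 settings alters the ratio of a gene, so they are no check of the calls. With a pseudocount of 0.1 the members lower were 3, Slc19a2 and Slc29a2 added, and all genes 665 higher and 571 lower, beside 374 and 316 in the report. With at least 5 FPKM in a library these were 0, 218 and 209, where fewer genes are tested, and 5 members were higher, without Slc37a3. With CPM, 2 members were lower, Slc19a2 added, and 609 genes higher. Slc38a6 was added to the members higher with CPM and with the pseudocount of 0.1. At 2-fold, 1 member was higher, Slc36a1, and all genes 85 higher and 46 lower. Without suffixed names 0 members were lower, since Slc36a3os is one. Removing the length trend left 312 genes higher and 168 lower, and the transcript length trend 229 and 111, and changed the sign of 30 and 28 of the 153 members, 10 named ones in each. Leaving out overlapping genes left 5 higher, without Slc37a2. Leaving out Slc36a1, a setting chosen after seeing the data, left the other 5 higher. This could not come out otherwise, since each call uses only the gene's own values. Other causes were not tested. No paired analysis was possible because each condition is 1 library. Members under 50 reads in both libraries, such as Slc36a3os with 26 and 5, are limited most by depth.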

Other observations

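Of 44 genes with Slc or Slco names outside the rule, such as Slc35 genes with another letter, 19 reached 1 FPKM. None of these was 1.5-fold higher or lower, against 3.42% and 2.89% of all genes kept, and their median log2 ratio was 0.0033. Slc35b1, a carrier of the endoplasmic reticulum, had 791 reads in CHBP- and 569 reads in CHBP+ M-MDSCs, a log2 ratio of -0.42. Slc35b2, which carries the sulfate donor PAPS into the Golgi, had 618 and 456 reads, a log2 ratio of -0.39. Slc35b1 and Slc35b2 had the lowest ratios of the 19 genes. The ratio was above 0 for 10 of the 19, and the highest was 0.13, of Slc35b4.

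Below 1 FPKM in both libraries, the sodium/proton exchanger Slc9a7 had 27 reads in CHBP- and 67 reads in CHBP+ M-MDSCs, and the proton-coupled folate transporter Slc46a1 had 65 and 31 reads. These genes were named after their values were seen.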
